A study of Homo sapiens with 4 samples.

Results

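The CD-named antigens are the genes whose symbol in the platform's probe annotation is a CD number with at most 1 letter after it, such as CD22 or CD8A. CD44, CD74, CD79A and CD79B were left out, and names that only begin with these letters, such as CD2AP, were not counted. The rule took 186 probes of 58 genes out of 10169 probes of 4604 genes that had 1 symbol. A value on all 4 arrays was present for 44 of the 58 genes, and 3675 of all 4604 genes met that condition. The 58 genes were divided by the cells they are best known from into 13 B-cell antigens, 14 T and NK cell antigens, 13 antigens of myeloid, dendritic, stem, endothelial and stromal cells, and 17 antigens of many leukocyte types. CD5L, a secreted macrophage protein rather than a surface antigen despite its symbol, stayed unclassified.

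CD numbers name molecules that antibodies recognise on leukocytes, and flow cytometry uses them to tell lineages and stages of maturation apart. On B cells they include co-receptors and brakes of the antigen receptor such as CD22 and CD72, receptors of T-cell help such as CD40, and ligands that stimulate T cells such as CD80 and CD86. Several of these genes, CD40, CD80, CD83 and CD86 among them, are known targets of NF-kB, the transcription factor that the kinases IKKa and IKKb activate and on which lymphomas of the activated B-cell type depend.

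The cells were OCI-Ly3, an established human line of diffuse large B-cell lymphoma of the activated B-cell type. Doxycycline at 20 ng/ml turned on a hairpin that targets the transcript of CHUK, the gene for IKKa, and each of the 4 two-colour arrays set cells with doxycycline (Cy5) against cells without it (Cy3). On the 2-day array and the 3-day array neither channel had inhibitor, and the Cy3 cells were untreated. On the other arrays both channels also had MLN120b, the IKKb inhibitor, at 12.5 uM. The 3 h inhibitor array had 3 h of it at 2 days of doxycycline, and the 24 h inhibitor array had 24 h of it at 3 days. Each group therefore holds 2 arrays of different times. The sources used here do not say whether the line is a clone or a pool, nor whether arrays come from separate cultures, so a p-value reflects only how far these arrays spread, which may be technical. No array swapped the dyes and none carried another hairpin, so the effects of hairpin, doxycycline and dye cannot be told apart in a single ratio. The study's title names its question, whether IKKa makes up for a blocked IKKb in classical NF-kB signalling.

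Values are the deposited log ratios, read as log2, and a positive value most likely means more RNA with doxycycline. The direction follows the usual order of Cy5 over Cy3 and is not settled; if it runs the other way, every sign below turns. CHUK had log2 ratios of -0.59 and -0.87 on the 2-day and 3-day arrays and -1.30 and -1.01 on the 3 h and 24 h inhibitor arrays, below 0 on all 4 in the direction taken. Values were present for 14375 probes on the 2-day array, 12546 on the 3-day array, 12018 on the 3 h inhibitor array and 11722 on the 24 h inhibitor array. The median absolute deviation of the log2 ratios over genes was 0.10 on the 2-day array, 0.18 on the 3-day array, 0.16 on the 3 h inhibitor array and 0.26 on the 24 h inhibitor array. A ratio gives no level, so the arrays cannot show which antigens these cells carry.

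Promoters are shown for CD83 and CD86 because both are known NF-kB targets, both hold the kB motif of NF-kB near the gene's start, and their probes did not all move one way. The sequences are the 250 bases before the annotated start in RefSeq (GRCh38.p14), 5′ to 3′ on the plus strand. Capitals mark the bases covered by matches to the kB motif. The CD83 window is chr6:14117522-14117771 and the CD86 window, 1 of several for that gene, is chr3:122077534-122077783.
CD83: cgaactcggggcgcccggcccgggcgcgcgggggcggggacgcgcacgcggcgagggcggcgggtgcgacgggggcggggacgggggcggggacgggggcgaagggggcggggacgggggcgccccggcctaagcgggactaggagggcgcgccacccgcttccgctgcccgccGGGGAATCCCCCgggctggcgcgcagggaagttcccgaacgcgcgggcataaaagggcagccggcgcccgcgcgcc
CD86: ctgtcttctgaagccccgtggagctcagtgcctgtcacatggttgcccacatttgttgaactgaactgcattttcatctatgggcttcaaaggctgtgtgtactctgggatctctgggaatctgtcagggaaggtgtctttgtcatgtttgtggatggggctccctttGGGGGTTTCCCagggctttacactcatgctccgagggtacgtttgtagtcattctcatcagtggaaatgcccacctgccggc
The motif was searched on both strands, and overlapping matches at 1 place were joined. CD83 had 3 overlapping matches at 1 place, the first beginning 76 bases before the start, and CD86 had 2, the first beginning 82 bases before it. Promoter windows from 250 bases before to 50 bases after the start were at hand for 41 of the 58 antigens, and 5 of these genes (12.2%) held the motif: CD83, CD86, CD63, CD8A and CD300A. Among all 27305 genes with a window, 1937 (7.09%) held it. Of single windows, 6 of 71 of the antigens (8.45%) and 2075 of all 35116 (5.91%) held it. Other antigens known as NF-kB targets, CD38, CD48, CD58, CD80 and CD274, had windows that held no match. A match describes the letters of the window and shows no binding.

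The first difference among the antigens was whether the arrays held a value for them. Values on all 4 arrays were present for 12 of 13 B-cell antigens (92.3%), 15 of 17 antigens of many leukocyte types (88.2%), 9 of 14 T and NK cell antigens (64.3%) and 8 of 13 myeloid, dendritic, stem, endothelial and stromal antigens (61.5%), beside 79.8% of all genes. By probe the shares were 47 of 61 (77.1%), 41 of 54 (75.9%), 14 of 37 (37.8%) and 17 of 32 (53.1%) in the same order, beside 66.8% of all probes with 1 gene. The T and NK cell probes with a value numbered 36 of 37 on the 2-day array, 30 on the 3-day array, 18 on the 3 h inhibitor array and 19 on the 24 h inhibitor array. The inhibitor arrays therefore lacked about as many of these probes as they held. Why a cell is empty is not stated in the sources used here.

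**Figure D1:**
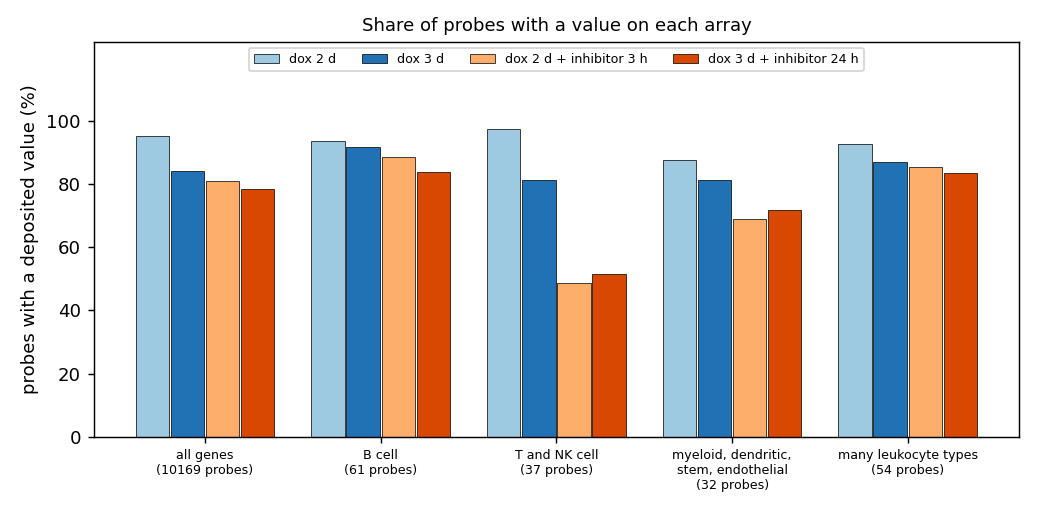
Share of probes with a deposited value (percent, vertical axis) on each of the 4 arrays (bar colours), for all probes with 1 gene and for the probes of each class of antigen. The T and NK cell probes fall from 36 of 37 on the 2-day array to 18 and 19 of 37 on the inhibitor arrays, while the B-cell probes stay above 80% on every array.

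Among the 14 antigens without a full set of values, CD209, a lectin of dendritic cells, had none at all. CD2, CD28, CD244 and CD247, all of T or NK cells, had values on the 2-day and 3-day arrays and none on the inhibitor arrays. CD274 (PD-L1) and CD302 did likewise, and CD248 had only a 3-day value, 0.79. CD70, the ligand of CD27 and the only B-cell antigen in this set, had log2 ratios of -0.33, 0.20 and -0.36 on the 2-day, 3-day and 3 h inhibitor arrays, on both sides of 0. CD84 had 0.14 on the 2-day array and 0.63 on the 3 h inhibitor array. CD1B, which presents lipids to T cells, reached 1.36 on the 24 h inhibitor array after 0.11 and 0.26 without inhibitor. CD8B, a chain of the cytotoxic T-cell co-receptor, reached 1.09 there after 0.11 and 0.49. These are single values on 1 inhibitor array, each with no repeat. CD300A lay between -0.0090 and 0.21 on its 3 arrays. CD5L lay between 0.30 and 0.77 on its 3 arrays, all above 0.

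With doxycycline alone, the antigens centred near 0 and no antigen was called. A gene was called where limma's Benjamini-Hochberg adjusted p over all 3675 genes was under 0.05, and with doxycycline alone 0 of all genes were called (0.0%). At an unadjusted p under 0.05 there were 299 lower and 49 higher genes, and among the antigens 2 lower (CD37 and CD164) and 3 higher (CD1A, CD1D and CD36). With the day of doxycycline as a block, CD164 and CD1D were called (adjusted p = 0.0480 and 0.0373), beside 86 of all genes. The median of the group means was 0.032 over the 44 antigens and -0.014 over all genes. Both arrays were below 0 for 11 of 44 antigens, beside 33.6% of all genes, and above 0 for 16, beside 27.0%. No antigen went beyond 1.5-fold in 1 direction on both arrays, beside 0.871% of all genes lower and 0.0% higher.

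With inhibitor in both channels, the antigens again lay near 0 and CD226 was the only one called. The call made 1 of 44 antigens higher, beside 1.28% of all genes, and 0 lower, beside 2.23%. At an unadjusted p under 0.05 there were 2 lower antigens (CD81 and CD164) and 5 higher (CD1D, CD34, CD48, CD52 and CD226) of 44, beside 519 lower and 478 higher genes of 3675. With the day of doxycycline as a block, which both groups share, 8 antigens were called: CD164 and CD81 lower, and CD1D, CD34, CD48, CD5, CD52 and CD226 higher, beside 933 of all genes. The median over the antigens was 0.078, against 0.0018 over all genes. It fell to 0.033 without the 24 h inhibitor array, 0.034 with arrays scaled to equal spread and 0.024 over single probes. Both inhibitor arrays were above 0 for 23 of 44 antigens, beside 33.4% of all genes, and below 0 for 10, beside 36.9%. None went beyond 1.5-fold on both inhibitor arrays, beside 2.15% of all genes lower and 0.925% higher. Over all 4 arrays, 13 antigens stayed above 0 and 7 below, beside 17.3% and 23.8% of all genes.

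The difference between the groups, with inhibitor minus without, gave 0 called genes among the 44 antigens and 0 among all 3675 (0.0%). At an unadjusted p under 0.05 there were 103 higher and 66 lower genes, and 2 of them were antigens, CD226 on the higher and CD36 on the lower side. The median difference was 0.038 over the antigens (-0.0039 with arrays scaled to equal spread) and 0.020 over all genes.

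**Figure D2:**
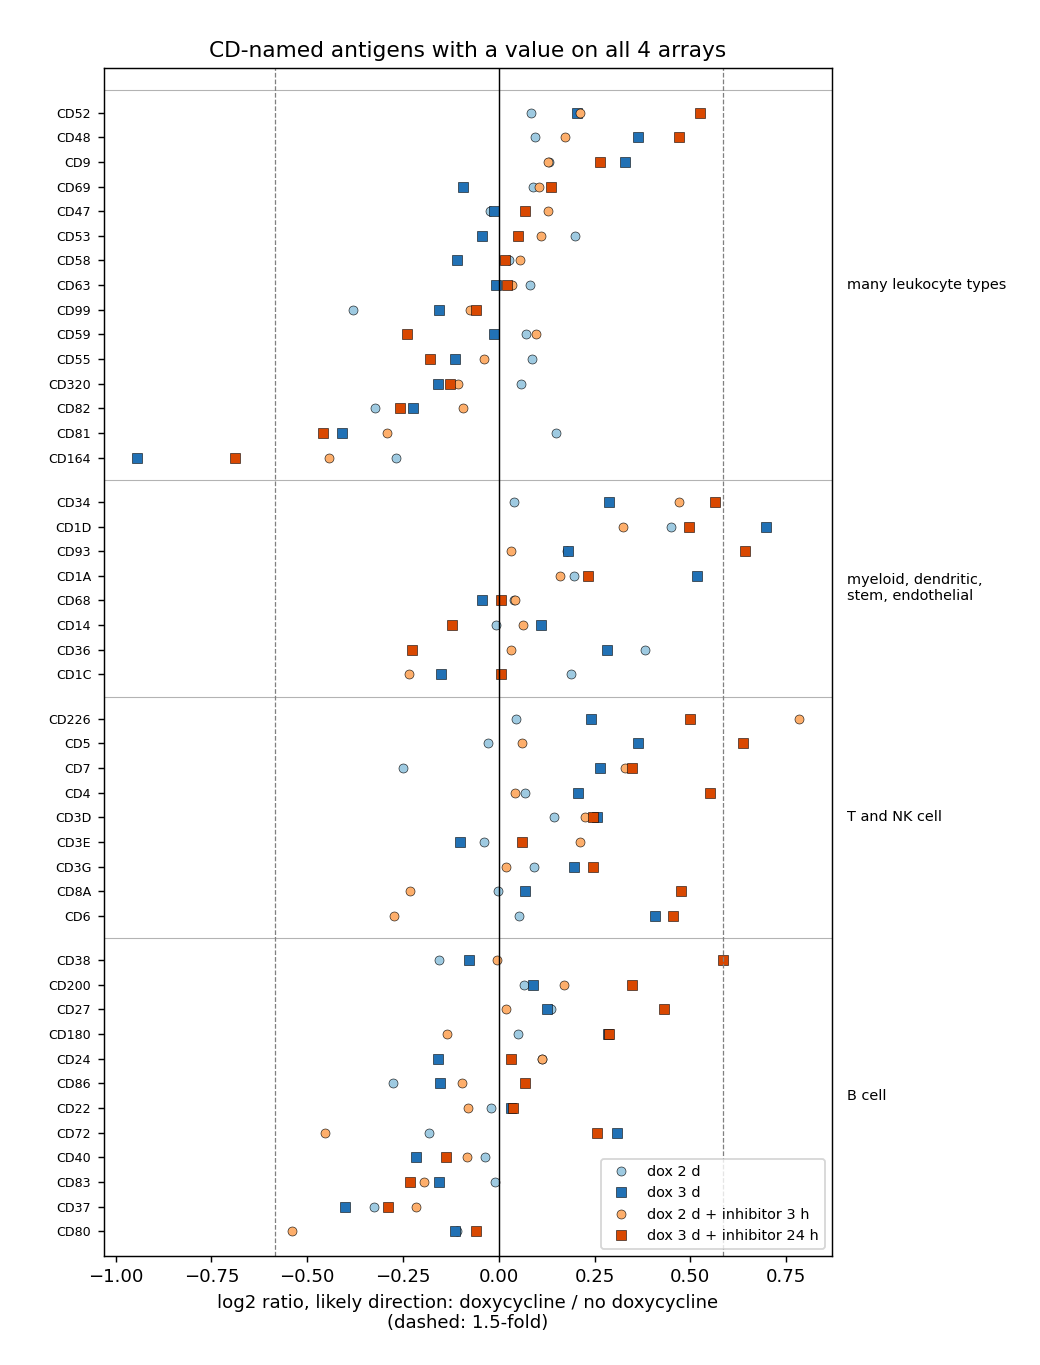
Log2 ratio on each array (horizontal axis, likely doxycycline over no doxycycline) for the 44 antigens with a value on all 4 arrays, grouped by class; circles are the earlier and squares the later time, blue without and orange with inhibitor, and dashed lines mark 1.5-fold. Most points lie between the dashed lines; no antigen has both points of a group beyond the same line.

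The B-cell antigens scattered around 0, with 6 of 12 below 0 on both arrays without inhibitor and 4 of 12 below 0 on both with it. The shares over all genes were 33.6% and 36.9%. Their median was -0.053 with doxycycline alone and -0.017 with inhibitor, and by array it was -0.028 on the 2-day, -0.096 on the 3-day, -0.089 on the 3 h inhibitor and 0.053 on the 24 h inhibitor array. The median with inhibitor thus had opposite signs on the inhibitor arrays. By the average of their probes, CD37, CD40, CD80 and CD83 were below 0 on all 4 arrays, and CD27 and CD200 above 0. Single probes were less uniform. CD40 had 2 probes below 0 on all 4 arrays and 2 above, and CD80 had 0 below on all 4. On the 3-day array 2 of 4 CD27 probes were below 0. So was the only CD200 probe with a value on all 4 arrays, at -0.099.

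CD37, a tetraspanin of mature B cells and the target of therapeutic antibodies in lymphoma, had log2 ratios of -0.33 and -0.40 on the 2-day and 3-day arrays and -0.22 and -0.29 on the 3 h and 24 h inhibitor arrays. All 4 of these averages were below 0 and the groups did not overlap, while single probes ran from -0.91 to 0.17. Among the 4 probes with full values, the groups separated only in the probe at -0.64 and -0.91 without inhibitor and -0.27 and -0.58 with it. They overlapped in every other full probe, such as that at -0.58 and -0.89 without inhibitor and -0.32 and -0.67 with it. How many of all genes separate between the groups in this way, here and below, was not counted. With 2 arrays in each group a full separation can easily arise without any effect, so each one is only a description. The mean was -0.36 ± 0.053 (SD, n = 2) with doxycycline alone (adjusted p = 0.413) and -0.25 ± 0.052 with inhibitor, neither of them called.

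Ligands of T-cell help came next. CD80, a ligand of the T-cell receptors CD28 and CTLA4, had -0.11 on both arrays without inhibitor, -0.54 on the 3 h inhibitor array and -0.059 on the 24 h inhibitor array. Only the 3 h inhibitor array was far from 0. CD86, the other ligand of this pair, had -0.28 and -0.15 without inhibitor and -0.095 and 0.070 with it. In this average the groups did not overlap and the inhibitor arrays lay nearer to 0. The separation rested on 1 probe, at -0.16 and 0.50 without inhibitor and 0.36 and 0.98 with it. The other 2 probes were below 0 on all 4 arrays. CD40, the receptor of T-cell help, had -0.036 and -0.22 without inhibitor and -0.083 and -0.14 with it. CD83, a marker of activated B cells and mature dendritic cells, had -0.011 and -0.16 without inhibitor and -0.19 and -0.23 with it. CD40 overlapped between the groups, whereas both inhibitor arrays of CD83 lay below both others in the average of its probes. That order rested on a probe at 1.33 on the 3-day and 0.87 on the 3 h inhibitor array. It had no value on the 24 h inhibitor array. CD83 averaged -0.084 ± 0.10 without and -0.21 ± 0.027 with inhibitor (n = 2 each).

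Brakes of the antigen receptor and other receptors or ligands of B cells followed no common pattern. CD22, a brake of the receptor, had -0.021 and 0.031 without inhibitor and -0.080 and 0.037 with it, the smallest spread of any B-cell antigen. CD72, another brake, had -0.18 and 0.31 on the 2-day and 3-day arrays and -0.45 and 0.26 on the 3 h and 24 h inhibitor arrays. Both later arrays of CD72 were high and both earlier ones low. CD180, a relative of the Toll-like receptors, had 0.051 and 0.28 without inhibitor and -0.13 and 0.29 with it, again higher on the later arrays. The negative sign on the 3 h inhibitor array rested on a probe at -1.04 that had no value on the 3-day array. CD200, a ligand that restrains myeloid cells, had 0.067 and 0.088 without inhibitor and 0.17 and 0.35 with it, and the groups did not overlap.

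CD38 and CD27 were highest on the 24 h inhibitor array, and CD24 was not. CD38, an ectoenzyme of germinal-centre and plasma cells, had -0.16 and -0.078 without inhibitor, -0.0047 on the 3 h inhibitor array and 0.58 on the 24 h inhibitor array, the only one above 0. CD27, the memory B-cell marker, had 0.14 and 0.13 without inhibitor, 0.019 on the 3 h inhibitor array and 0.43 on the 24 h inhibitor array. CD24, a glycolipid-anchored antigen of immature B cells with near-identical pseudogene copies that could share its signal, had 0.11 and -0.16 without inhibitor and 0.11 and 0.032 with it. Its values lay on both sides of 0 without inhibitor.

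**Figure D3:**
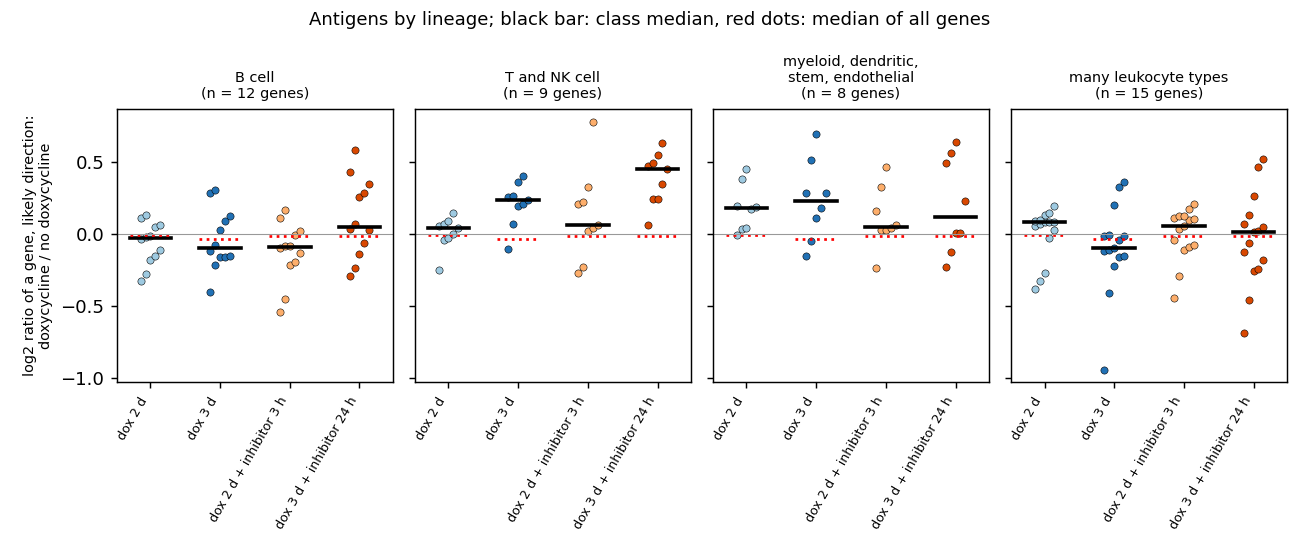
Log2 ratio of each antigen (points) by array, in 4 panels for the 12 B-cell, 9 T and NK cell, 8 myeloid, dendritic, stem, endothelial and stromal antigens and the 15 antigens of many leukocyte types; black bars are class medians and red dots the median of all genes on that array. On the 24 h inhibitor array the T and NK cell median is 0.46 with all 9 antigens above 0, and the B-cell median is 0.053.

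The T and NK cell antigens had medians of 0.14 with doxycycline alone and 0.24 with inhibitor, above those of the B-cell antigens, a difference that was not tested. By array the median was 0.044 on the 2-day, 0.24 on the 3-day, 0.061 on the 3 h inhibitor and 0.46 on the 24 h inhibitor array. All 9 lay above 0 on the 24 h inhibitor array, 8 on the 3-day array, 7 on the 3 h inhibitor array and 5 on the 2-day array. The later arrays were thus the high ones, with and without inhibitor. Of all 3675 genes, 1796, 1682, 1749 and 1747 lay above 0 on the arrays in the same order. The median difference between the groups was 0.16. It became 0.34 without the 3 h inhibitor array and -0.095 without the 24 h inhibitor array. Each of these sets 1 day with inhibitor against the mean of both days without it, so they mix day with inhibitor. On arrays of the same day, the class median was 0.061 with inhibitor and 0.044 without it at 2 days. At 3 days it was 0.46 and 0.24. The class lacked 23 of its 37 probes on at least 1 array. Restricted to the probes with a value on all 4 arrays, the medians were 0.13 with doxycycline alone and 0.19 with inhibitor, and the median difference was 0.065.

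CD226 (DNAM-1), an activating receptor of NK and T cells, was the called antigen. It had log2 ratios of 0.044 and 0.24 on the 2-day and 3-day arrays and 0.78 and 0.50 on the 3 h and 24 h inhibitor arrays, so both inhibitor arrays were above both others. The mean with inhibitor was 0.64 ± 0.20 (SD, n = 2), or 1.56-fold, with a standard error of 0.129 and an adjusted p of 0.0483 in limma. The difference of the groups was 0.50 and not called (adjusted p = 0.998). CD226 had 2 probes: the first gave 0.048, 0.0060, 0.50 and 0.50 on the 2-day, 3-day, 3 h and 24 h inhibitor arrays, and the other gave 0.041, 0.48 and 1.07 with no value on the 24 h inhibitor array. With only the first probe the mean was 0.50 and the adjusted p 0.0520. The call also ended without the 2-day or the 3-day array (adjusted p = 0.119 for each) and without the 3 h inhibitor array (0.0521), and held without the 24 h inhibitor array (0.00425). It ended likewise with the median of probes (0.0511) and with arrays centred (0.0521) or scaled (0.0843), and over all alternatives run the adjusted p lay between 0.00425 and 0.119.

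The other T and NK cell antigens were not called, and they differed in which arrays were high. CD5, a brake of the antigen receptor that a subset of B cells also carries, had -0.028 and 0.36 without inhibitor and 0.061 and 0.64 with it. CD6, its relative, had 0.054 and 0.41 without inhibitor and -0.27 and 0.46 with it. CD7, an early T-cell marker, had -0.25 and 0.26 without inhibitor and 0.33 and 0.35 with it. In CD5 and CD6 the later array of each group was the high one, and in CD7 only the 2-day array was below 0. The 2 probes of CD7 parted on the 24 h inhibitor array, at 0.93 and -0.23. The CD3 chains, which signal from the T-cell receptor, had means with inhibitor between 0.13 (CD3G) and 0.24 (CD3D), and CD3E was lower on the later array in both groups. CD4 averaged 0.30 with inhibitor, from 0.043 and 0.55, and CD8A 0.12, from -0.23 and 0.48.

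Among the myeloid, dendritic, stem, endothelial and stromal antigens, 5 of 8 were above 0 on both arrays in each group and none was below 0 on both arrays of a group. The 5 were not all the same: CD36 was among them only without inhibitor and CD68 only with it. On all 4 arrays 4 of the 8 were above 0, beside 17.3% of all genes. Over all genes, 27.0% alone and 33.4% with inhibitor were above 0 on both arrays, and 33.6% and 36.9% below. The median was 0.17 with doxycycline alone and 0.11 with inhibitor. Restricted to probes with a value on all 4 arrays, the median with doxycycline alone was 0.090. Tested as single probes, the median with inhibitor was -0.029. The sign with inhibitor therefore depended on whether probes or genes were the unit.

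CD1D, which presents lipids to natural killer T cells, was the highest antigen with doxycycline alone. It had 0.45 and 0.70 on the 2-day and 3-day arrays and 0.33 and 0.50 on the 3 h and 24 h inhibitor arrays, above 0 on all 4 with the groups overlapping. Its 2 probes were both above 0 on all 4 arrays but parted on the 3-day array, at 1.215 and 0.182. With doxycycline alone they averaged 0.80 and 0.35. The mean was 0.57 ± 0.18 alone (adjusted p = 0.248) and 0.41 ± 0.12 with inhibitor (adjusted p = 0.0977). Both means missed the threshold, although each was more than 3 times its standard error of 0.125. With the arrays scaled to equal spread CD1D passed with doxycycline alone (mean 0.69, adjusted p = 0.0264). With either inhibitor array left out, the mean alone stayed 0.57, because the arrays without inhibitor were the same, so this gives no separate check. Over the alternatives that kept all 4 arrays and 1 value per gene, limma's adjusted p alone ran from 0.0264 to 0.314.

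CD34, a sialomucin of blood stem cells and endothelium, had 0.041 and 0.29 without inhibitor and 0.47 and 0.56 with it. Both inhibitor arrays were higher than both others. The mean with inhibitor was 0.52 ± 0.067 and not called (adjusted p = 0.0640), although it passed without the 3 h inhibitor array (0.0246). CD36, a scavenger receptor for lipids, went the opposite way, with 0.38 and 0.28 without inhibitor and 0.031 and -0.23 with it. The difference was -0.43 and not called (adjusted p = 0.998). Each of its 4 probes was lower on both inhibitor arrays than on the array of the same day without inhibitor. CD1A, a lipid-presenting molecule of Langerhans cells, had 0.20 and 0.52 without inhibitor and 0.16 and 0.23 with it. Its 3-day value rested on a probe at 1.71 that had no value on the inhibitor arrays.

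CD93, a receptor of endothelial and myeloid cells, had a mean of 0.34 ± 0.43 with inhibitor, from 0.031 and 0.64. CD14 and CD68, the common monocyte and macrophage markers, and CD1C had group means between -0.11 and 0.052.

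The antigens of many leukocyte types held the lowest antigen, while most of the 15 lay near 0. Their medians were -0.014 with doxycycline alone and 0.028 with inhibitor. The first had the opposite sign with the arrays centred (0.0058), with them scaled (0.018) and without the 3-day array (0.082). On the 3-day array 12 of the 15 were below 0, and on the 2-day array 4 were, beside 1989 and 1924 of all 3675 genes.

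CD164 (endolyn), a sialomucin of lysosomes and the cell surface, was the lowest antigen in both groups. It had -0.27 and -0.94 on the 2-day and 3-day arrays and -0.44 and -0.69 on the 3 h and 24 h inhibitor arrays, and the later array was the lower one in each group. The mean was -0.61 ± 0.48 alone (adjusted p = 0.372) and -0.56 ± 0.17 with inhibitor (adjusted p = 0.102), so it was not called. Scaled arrays gave -0.65 alone with an adjusted p of 0.0494. Without either inhibitor array the adjusted p alone was 0.00096, and over all alternatives it ran up to 0.999. With inhibitor CD164 passed without the 3 h inhibitor array (0.00481). The gene had 1 probe on the array.

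The 6 tetraspanins, membrane organisers that pair with other antigens, went in both directions, with means from -0.36 to 0.23 alone and from -0.38 to 0.20 with inhibitor. CD81, found on most leukocytes, had 0.15 on the 2-day array and -0.41, -0.29 and -0.46 on the 3-day, 3 h inhibitor and 24 h inhibitor arrays. Only the 2-day array was above 0, and the mean with inhibitor was -0.38 ± 0.12 (adjusted p = 0.182). CD82 had -0.32 and -0.22 without inhibitor and -0.092 and -0.26 with it, below 0 on all 4. CD81 and CD82 had 1 probe each. CD9 was above 0 on all 4 arrays, with means of 0.23 alone and 0.20 with inhibitor.

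CD52, the small glycoprotein targeted by alemtuzumab, had 0.085 and 0.20 without inhibitor and 0.21 and 0.53 with it, above 0 on all 4. CD48, a partner of the NK receptor CD244, had 0.096 and 0.36 without inhibitor and 0.17 and 0.47 with it, higher on both later arrays. Neither was called with inhibitor, at means of 0.37 (adjusted p = 0.127) and 0.32 (adjusted p = 0.182). CD52 passed without the 3 h inhibitor array (0.0390). CD99, an adhesion molecule of migrating leukocytes, had -0.38 and -0.15 without inhibitor and -0.075 and -0.060 with it. All 4 values of CD99 were below 0, and the inhibitor arrays were nearest to 0. CD55 and CD59, which shield cells from complement, had group means between -0.11 and 0.029. CD47, the signal that stops phagocytosis, averaged -0.017 alone and 0.099 with inhibitor. CD69, an early activation antigen, averaged -0.0020 and 0.12.

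The 8 antigens known as NF-kB targets that had full values (CD38, CD40, CD48, CD58, CD69, CD80, CD83 and CD86) had a median of -0.098 with doxycycline alone and 0.012 with inhibitor. By array the median was -0.024 on the 2-day, -0.11 on the 3-day, -0.044 on the 3 h inhibitor and 0.044 on the 24 h inhibitor array, so the inhibitor arrays had opposite signs. Of these 8 antigens, 7 had a mean below 0 alone and 4 with inhibitor, beside 1945 and 1828 of all 3675 genes. None was called. The list was drawn up with earlier results of these data known. CD48 was the 1 target with a mean above 0 alone.

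Probes of the same gene did not always move together, and the averages hide this for CD40, CD83 and CD86. Of the 119 single probes of antigens with full values, limma called 1 with doxycycline alone, a CD37 probe at -0.78 (adjusted p = 0.0446), beside 1.03% of 6796 probes called lower. With inhibitor it called 5 lower, 2 of CD40 and 3 of CD83, beside 7.65% of all probes. It called 7 higher, 1 each of CD1A, CD226, CD34, CD48, CD52, CD7 and CD86, beside 4.03%.

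Of the CD40 probes with full values, 2 averaged -0.64 and -0.67 with inhibitor (adjusted p = 0.0182 and 0.0225 over probes). The other two averaged 0.44 and 0.40 (adjusted p = 0.0605 and 0.0841), so the gene mean of -0.11 describes none of the 4. The lower pair was also below 0 without inhibitor, at -0.23 and -0.16 on the 2-day array and -0.43 and -0.63 on the 3-day array. CD83 had 10 full probes, and 7 of them were below 0 on both inhibitor arrays with a mean of -0.39. Only 2 were above 0 on both, averaging 0.11 and 0.34. The 3 called CD83 probes averaged between -0.52 and -0.58. CD86 had 2 probes below 0 on all 4 arrays, with means of -0.42 and -0.29 with inhibitor, and a probe that rose to 0.36 and 0.98 on the inhibitor arrays (mean 0.67, adjusted p = 0.0484). In CD37, 2 of 4 probes averaged -0.78 and -0.73 without inhibitor and the other two 0.034 and -0.23.

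**Figure D4:**
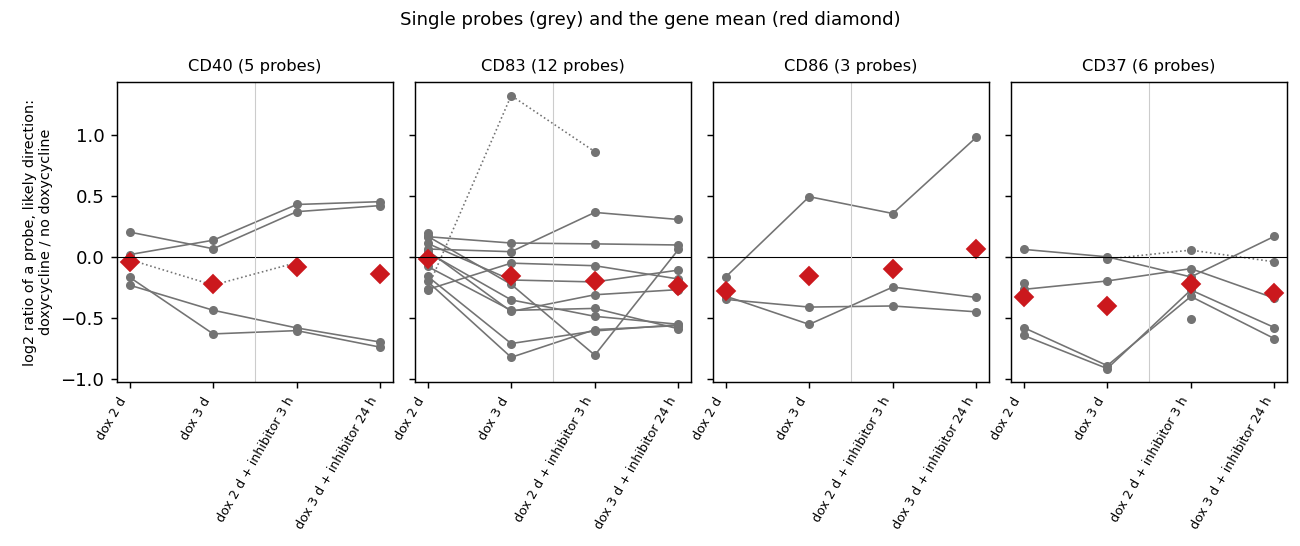
Log2 ratio of every probe (grey points, joined across arrays; dotted where an array has no value) and the gene mean (red diamonds) of CD40, CD83, CD86 and CD37 on the 4 arrays. The CD40 probes split into a pair near 0.4 and a pair near -0.6 on the inhibitor arrays, with the gene mean between them.

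How many genes have probes that split across 0 was not counted, and only the spread between probes was compared. The standard deviation between probe means with inhibitor had a median of 0.173 over the 20 antigens with at least 3 full probes and 0.197 over 767 such genes of the array. CD40 (0.621) and CD86 (0.597) were above the array's 90th percentile of 0.427, and CD83 stood at 0.309. CD22 (0.030) and CD55 (0.012) had the closest probes. The annotation names the same gene for all probes of each, and the sources used here do not say which part of a transcript a probe matches.

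Of 27 listed B-cell surface genes whose symbol is no CD number, 20 had full values. Their median was 0.023 alone and -0.0067 with inhibitor. With inhibitor 2 of the 20 were called, both lower, beside 2.23% of all genes called lower and 1.28% higher. TNFRSF13C, the receptor of the survival factor BAFF, had -0.45 and -0.49 without inhibitor and -0.92 and -0.73 with it (mean -0.83, adjusted p = 0.0273). CCR7, the homing receptor for lymph nodes, had -0.37 and -0.054 without inhibitor and -0.77 and -0.96 with it (mean -0.87, adjusted p = 0.0301). For both, the inhibitor arrays were lower than the others. The lowest means alone were SLAMF7 at -0.48 and TNFRSF13C at -0.47, and the highest were CCR6 at 0.24 and TNFRSF17 at 0.21. With inhibitor the highest were CCR6 at 0.57 and FCGR2B at 0.40.

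Values were further from 0 on the later array for most antigens, 33 of 44 without and 30 of 44 with inhibitor. The same held for 2538 and 2519 of all 3675 genes. Among the B-cell antigens the count was 9 of 12 without and 7 of 12 with inhibitor.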

How the data were processed

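Each array compared 2 channels of OCI-Ly3 RNA, and the deposited values are log ratios per probe, taken as log2 because they run from -5.61 to 7.49; the base and direction are not stated in the file. How the authors corrected background, normalized, filtered and left cells empty is not stated in the sources used here. Scanner signals were not used here, so signal over background is unknown, and precision is limited by the small number of arrays. The platform annotation gave 1 gene symbol to 10169 of 15246 probes, several to 4 and none to 5073; 10128 matched RefSeq (GRCh38.p14) and no antigen's symbol changed. For each array a gene's probes with a value were averaged, and genes with a value on all 4 arrays were fitted with limma 3.58.1 in R 4.3.3 (lmFit with a mean per group, eBayes; 2 residual and 4.95 prior degrees of freedom). Tests were two-sided, each group mean against 0 and the difference, with Benjamini-Hochberg adjustment over 3675 genes. The script was tested on simulated data. Named with array values were the B-cell antigens with full values, called antigens, any past 1.5-fold on both arrays, and the 5 highest and 5 lowest means per comparison; of the other B-cell surface genes, those called, or else the 2 highest and 2 lowest means. Members and lists were chosen with earlier results of these data known. Alternatives covered probe averaging, centring, scaling, missing values, single probes, doxycycline day as a block, the eBayes prior, thresholds and leaving out each array.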

Additional observations from a re-analysis of the deposited data

Results flagged for a closer look

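CD3E, a signalling chain of the T-cell receptor, lay below 0 on both arrays without inhibitor (-0.038 and -0.10) and above 0 on both with it (0.21 and 0.062). The difference with inhibitor minus without was 0.21, and limma's test of it was not called (adjusted p = 0.998). CD47 likewise lay below 0 on both arrays without inhibitor (-0.024 and -0.011) and above 0 on both with it (0.13 and 0.069). Its difference was 0.12 (adjusted p = 0.998 in limma). The CD47 values without inhibitor were close to 0, and its probes did not move together. Of its probes, 3 of 5 were below 0 on the 2-day array and 3 of 5 on the 3-day array. On the 3 h and 24 h inhibitor arrays 1 of 5 and 1 of 4 were. How many of all genes change side between the groups in this way was not counted.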

How the results depend on the processing

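With doxycycline alone the count of called antigens, 0, became 2 with arrays scaled to equal spread, 1 with single probes, and 0 to 2 when 1 array was left out; 1 antigen went beyond 1.5-fold higher on both scaled arrays. The scaled count of all genes rose from 0 to 112 (3 higher, 109 lower). With inhibitor the count, 1, became 0 with only full probes, 0 with the median of probes, 0 with arrays centred and 0 scaled, 3 with genes valued on at least 1 array of each group (CD1B, CD226 and CD8B; 177 of 4198 genes, and CD1B and CD8B each rest on 1 inhibitor array), 3 at an adjusted p under 0.10 (535 of 3675 genes), 9 genes with single probes, and 0 to 7 when 1 array was left out. The 7 came without the 3 h inhibitor array (CD164, CD34, CD38, CD4, CD5, CD52 and CD93), and 0 without the 2-day or the 3-day array, which left 11 of all genes called against 881 without the 3 h inhibitor array. Of all genes, 129 were called with inhibitor (47 higher, 82 lower) and 53 with scaling (9 higher, 44 lower). With doxycycline day as a replicate block, 2 antigens were called alone (CD164 and CD1D) and 8 with inhibitor (CD164, CD1D, CD226, CD34, CD48, CD5, CD52 and CD81; 2 lower, 6 higher), and the counts of all genes were 86 and 933. The labels give both groups the same days but no shared culture; over genes, the day 3 minus day 2 differences of the groups correlated at 0.434, and there are only 2 days. The count for the difference between groups stayed 0 among antigens under every alternative run, while of all genes it became 4 with genes valued on at least 1 array of each group, 142 without the 3 h and 19 without the 24 h inhibitor array. With doxycycline alone, leaving out either inhibitor array gave 200 of all genes. No antigen with an unadjusted p under 0.05 changed sign in that comparison; among all 44, the sign changed under some processing alternative for 11 alone, 3 with inhibitor and 10 for the difference, and with an array left out for 17, 11 and 27. With an array left out, 1 residual degree of freedom remained and the lone array was assumed to vary like the other group.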
